A study of Homo sapiens with 2 samples.

Results

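Methylated adenosines were examined in the transcripts of the nuclear pore complex and of the receptors that carry cargo through it. The genes were taken by symbol from the deposited site lists: the numbered nucleoporins (NUP), importins alpha (KPNA), KPNB1, importins (IPO), exportins (XPO), transportins (TNPO) and numbered Ran-binding proteins (RANBP). They number 52 of the 11406 named genes with at least 1 listed site. Of these, 20 were nucleoporins, 22 were transport receptors, 4 were Ran-binding cofactors or scaffolds (RANBP1, RANBP3, RANBP9 and RANBP10), and 6 belonged to neither class. The last 6 were the lncRNA NUP50-DT, the NUP62-related gene NUP62CL and the pseudogenes NUP50P1, NUP50P3, KPNA2P2 and TNPO1P3. RANBP2, a pore filament protein, was counted as a nucleoporin, and RANBP6, a relative of IPO5, as a receptor. A further 7 protein-coding genes that match the same symbols had no entry in the files used here: NUP210L, NUP35, NUP93, KPNA7, RANBP17, RANBP3L and XPO4.

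The samples were 2 libraries of HEK293T, an established human embryonic kidney line, labelled wild type, Day 0 and treated with the GLORI reagents, with no second genotype or treatment. In GLORI, glyoxal and nitrite turn unmethylated adenosine into inosine, which is read as G, while N6-methyladenosine (m6A) resists and is read as A. The level of a site is the number of A reads over A plus G reads. The labels do not say that the libraries came from separate cultures, so any difference between them measures only the spread between these libraries, which may be technical. Of the marker genes of the line, all 6 examined (PAX2, EYA1, VIM, NEFM, INA and ENO2) had shared sites, and none of 6 markers of blood, liver, red cells, fibroblasts or podocytes was listed.

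The nuclear pore is a ring of scaffold complexes, the Y complex and the inner ring, lined by nucleoporins rich in phenylalanine-glycine repeats that form the permeability barrier. Importins and exportins of the importin beta family bind these repeats and cross the barrier with cargo, and the GTPase Ran sets the direction of transport by binding them in the nucleus. m6A, laid down mainly in long internal exons and near stop codons, is known for its part in the export, translation and decay of messenger RNA. A transcript whose first base is adenosine can also carry N6,2′-O-dimethyladenosine (m6Am) next to the cap, which is methylated at the same N6 position. A listed site at the first base therefore cannot be told apart here as m6A or m6Am.

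Sites at the very first annotated base of the gene were more frequent among these genes than among all genes, in a comparison that was not planned. They were listed in 9 of the 52 genes, which is 17.3%, against 545 of 10986 named genes with a RefSeq position, or 4.96%. Counting only sites present in both libraries, the shares were 5 of 52 (9.62%) and 337 genes (3.07%). Genes with a first-base site had a median deposited gene coverage of 78.0 over the whole series and 46.3 among these genes, against 30.1 for all named genes and 43.0 for these genes, so depth moved with such sites. Its part in the difference was not tested. The 9 genes were KPNA2, KPNA4, KPNA5, NUP205, NUP54, NUP58, NUP62CL, TNPO2 and XPO6, so importins alpha, importers, exportins and nucleoporins were all represented. The sequences of 6 of them are shown because these counts rest on such positions. Each run is 21 bases of RefSeq sequence (GRCh38.p14) in the sense of the gene, with the listed adenosine in capitals and the gene's first annotated base at that letter.
KPNA2 (chr17:68035725-68035745, plus strand): tgcacgagccAcacggtcttt
NUP205 (chr7:135557907-135557927, plus strand): tccatgcggcAgaagggctct
NUP54 (chr4:76148387-76148407, minus strand): ggagtaacctActtggtctcc
NUP62CL (chrX:107206423-107206443, minus strand): tttaagcctcAgtctcggtta
TNPO2 (chr19:12723922-12723942, minus strand): cccaggtttcAgtccagcgga
XPO6 (chr16:28211955-28211975, minus strand): ggcgctcgccActtccggcgc

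The base before the adenosine was C in each sequence shown except that of NUP54, where it was T. C before A is also common without a listed site there: it occurred in 9 of the 13 genes of the group whose promoter entry has A as first base and no listed first-base site, and in 66.5% of all RefSeq promoters with A there. In the 42 genes of the group with a promoter entry, all 10 listed sites within the first 50 annotated bases lay on an adenosine of the reference. So did all 1063 such sites in the 8223 named genes of the series with an entry. Of the 10, those past the first base were NUP205 at base 15, NUP37 at base 16 and NUP85 at base 25. KPNA4 and KPNA5 had no entry, so the reference base of their first-base sites was not checked.

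First-base levels were moderate. KPNA2 stood at 43.4% of 106 reads in replicate 1 and 50.5% of 111 in replicate 2. NUP205 stood at 22.4% of 49 reads and 33.3% of 42. XPO6 had 27.3% of 22 reads and 17.2% of 29, and NUP54 15.1% of 73 and 12.2% of 90. Among these genes, which leave out NUP58, the 95% Wilson interval of KPNA2 on summed reads was 40.5% to 53.6%. It overlapped none of those of NUP205 (19.4% to 37.4%), XPO6 (12.5% to 34.6%) and NUP54 (9.09% to 19.6%). The intervals of NUP205, XPO6 and NUP54 all overlapped one another. The median of 27.9% over the 5 genes with such a site in both libraries lay near the 29.8% of the 337 such genes of the series. TNPO2 (10.9% of 55 reads) and NUP62CL (32.0% of 25) were listed in replicate 1 alone, KPNA4 (52.4% of 21) and KPNA5 (26.1% of 23) in replicate 2 alone. For KPNA4, KPNA5 and NUP62CL the first-base site was the only listed site of the gene. Such genes were 3 of the 12 with a single listed site (25%), against 83 of 2119 in the series (3.92%).

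Over the group, replicate 1 listed 355 sites and replicate 2 listed 378, of which 304 were at the same stranded position in both files. These 304 shared sites fell in 47 genes, and the series had 60462 shared sites, with 9521 named genes holding at least 1. Shared sites of the group had a median coverage of 61 reads in replicate 1 and 76 in replicate 2, from 15 to 885 and 1047 reads. Listed sites of the group held 32899 A or G reads in replicate 1 and 38196 in replicate 2, of 5221660 and 6306522 in the series. Coordinates are on GRCh38. The 51 sites listed in replicate 1 alone had a median level of 15.2% and the 74 in replicate 2 alone 20%, against 39.8% for shared sites. The files hold no site below 10%, 5 A reads or 15 reads, so that at 15 reads nothing below 33.3% could be listed. A gene or site without an entry may therefore lack methylation or depth.

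Levels of shared sites differed between the libraries by a median of 4.17 percentage points, and 248 of 304 sites (81.6%) lay within 10 points. Fisher's exact test with Benjamini-Hochberg adjustment over all 60462 shared sites called none of the 304, the same 0% as in the whole series, and 11 (3.62%) had an unadjusted p below 0.05 against 3.06% in the series. The smallest unadjusted p was 0.0071, for XPO6 at chromosome 16, position 28098513, with 78.6% of 262 reads and 68.2% of 292. The largest gap, 43.3 points, was at RANBP2 position 108782643 of chromosome 2, where 8 of 20 and 15 of 18 reads showed A. Fisher's test thus called no difference beyond read sampling at shared sites. It cannot exclude one, because it is weak at low coverage and leaves out sites listed in 1 library alone. The libraries were counted as 1 sample. Errors below are counting standard errors (SE) of a gene's mean level over its shared sites, which cover counting error only.

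**Figure D1:**
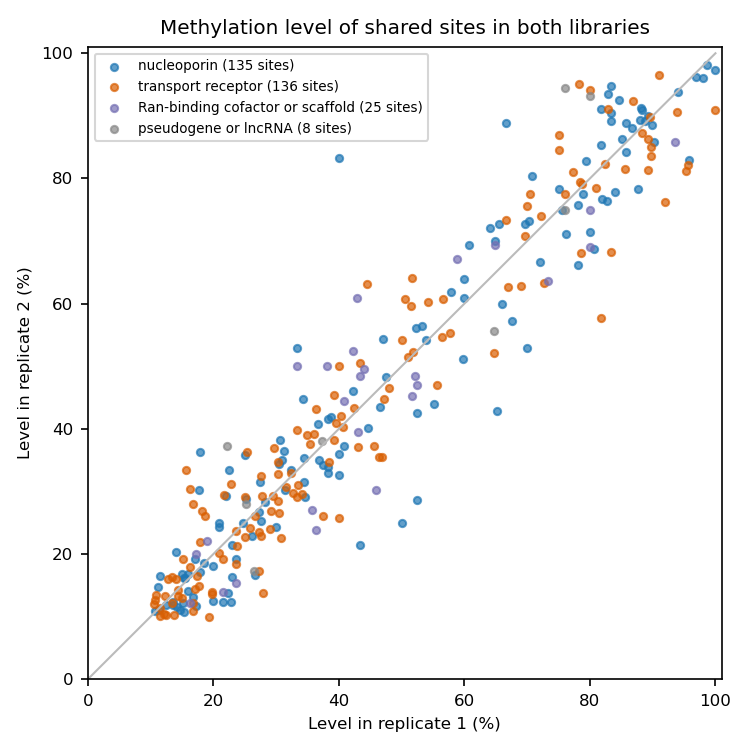
Level of each of the 304 shared sites in replicate 1 (x axis, %) against replicate 2 (y axis, %), with 1 point per site coloured by gene class and the line of equality in grey. Points follow the line, with a median gap of 4.17 points, and the point farthest from it is the RANBP2 site at 40% and 83.3%.

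Nucleoporins and transport receptors carried like numbers of sites and like typical levels, but nucleoporins were more uneven. The median gene of either class had 4 shared sites, the same as all named genes. The quartiles, however, were 1.25 and 12.5 sites for nucleoporins and 2.75 and 8.25 for receptors, and 5 of 18 nucleoporins but 1 of 20 receptors had a single shared site. The median gene level was 40.8% for nucleoporins (quartiles 19.7% and 48.6%) and 39.9% for receptors (31.1% and 46.0%), against 46.6% for all genes. Gene levels spanned 12.9% to 81.7% among nucleoporins and 22.5% to 56.7% among receptors. The difference of medians, receptor minus nucleoporin, was -0.895 points. It became 2.06 points from replicate 2 alone, where every site listed in that library was used and 22 receptors entered. Its sign was thus not stable across the sets of sites and genes used, though it was negative under the other settings run. With 1 group of samples there is no test between gene classes.

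Deposited gene coverage, for which no formula was found in the labels or headers, differed between the classes, with medians of 43.5 for nucleoporins and 68.5 for receptors against 31.9 for all genes. Each gene was therefore also set beside the median of genes in its own decile of gene coverage. More shared sites than that median were held by 8 of 18 nucleoporins and 8 of 20 receptors, and by 19 of the 47 genes in all, where 45.1% of all genes did so. A mean level above it was found in 9 of 18 nucleoporins, 10 of 20 receptors and 23 of 47 genes, where 50% of all genes lay above. Both counts of the group were near their background.

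The share of strong sites among nucleoporins was that of all genes, and it was lower among receptors, with no test possible. Levels of at least 80% were reached by 27 of 135 nucleoporin sites (20%) and 19 of 136 receptor sites (14.0%), against 20.1% over all genes. Levels below 20% made up 20.7% and 19.9% of sites in the classes, and 15.2% over all genes. Median site coverage was 71 and 80 reads in nucleoporins and 62.5 and 77 in receptors, against 44 and 51 over all genes. Weaker sites could therefore be listed in the classes, and the part of depth in these shares was not tested. Position, which was not a planned comparison, differed as well. The final 10% of the gene's annotated span held 47 nucleoporin sites (34.8%) and 72 receptor sites (52.9%), against 44.1% over all protein-coding genes. The receptor share was uneven: 28 of 31 sites in importins alpha (90.3%), 15 of 24 in exportins (62.5%) and 29 of 81 in importers (35.8%). The nucleoporin share was 37.0% without RANBP2, whose annotated gene spans 1122820 bases. Within 1 kb of the annotated end lay 19.3% of nucleoporin and 14.7% of receptor sites, against 21.6%. NUP210 alone gave 11 of these 26 nucleoporin sites, and without it the nucleoporin share was 12.4%. Exon and UTR annotation was not used here, so positions are given as genomic distances only.

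**Figure D2:**
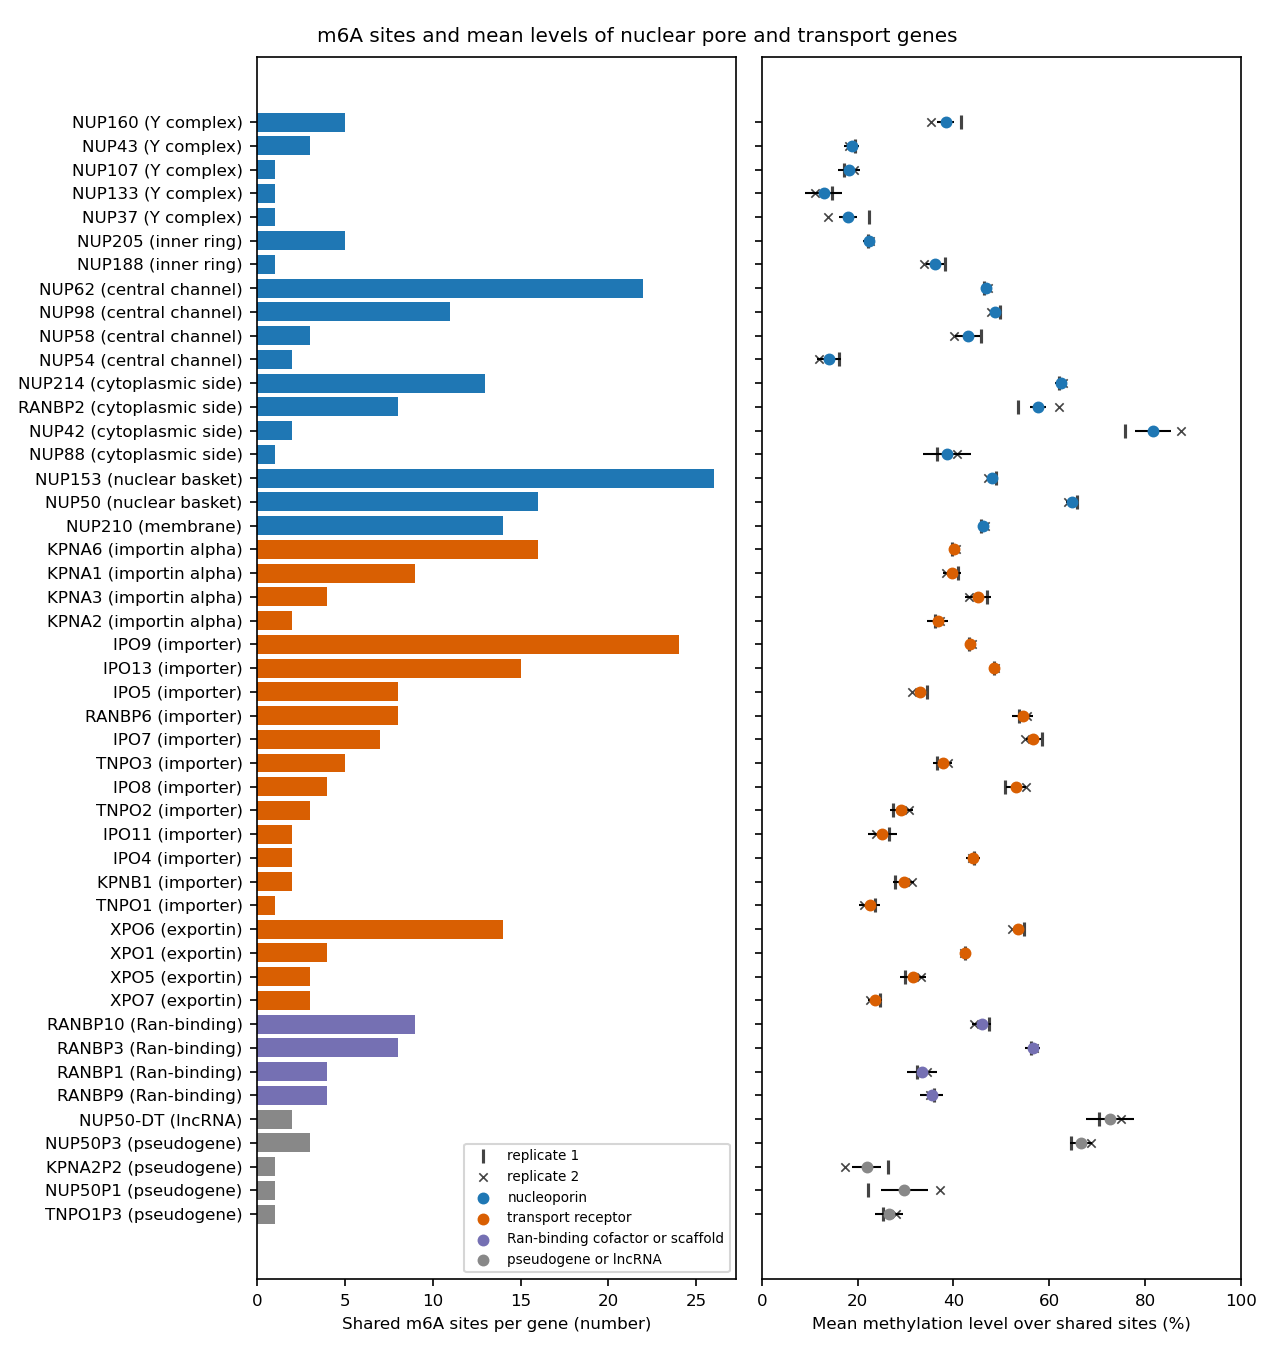
Number of shared m6A sites (left, bars) and mean level over those sites in % (right) for the 47 genes with a shared site, ordered by role. Circles are the mean of both libraries with 1 counting SE, and ticks and crosses are replicates 1 and 2. Genes labelled Y complex other than NUP160 sit at the low end of both panels. NUP153, NUP62, IPO9, NUP50 and KPNA6 have the longest bars.

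The genes classed here as NUP-named subunits of the Y complex, the outer scaffold ring, had few and weak sites. The 5 of them with shared sites held 11 in all, and their gene levels had a median of 18.2%. None of the 5 lay above the median level of its coverage decile, where 50% of all genes did, and none above the median number of sites. NUP107 had 1 site, at 17.1% of 123 reads and 19.2% of 156. NUP133 had 1, at 14.7% of 34 and 11.1% of 45, and NUP37 had 1, at 22.3% of 188 and 13.7% of 211. The intervals on the summed reads overlapped (95% Wilson, 14.2% to 23.2%, 7.02% to 21.8% and 14.4% to 21.9%), so these 3 sites were not distinguishable. NUP43 had 3 sites with a mean of 18.8% ± 1.58 (SE). The exception was NUP160, whose 5 sites within 172 bases near the gene's end averaged 38.4% ± 1.78 and included one at 82.0% of 122 reads and 76.7% of 159. NUP85 had a single site in replicate 1. Other proteins of the complex differed among themselves: SEC13 had 1 shared site at 43.5% and 41.2%, above the 37.5% of its coverage decile, AHCTF1, which tethers the complex to chromatin, had 5 sites averaging 52.1% ± 2.71 where its decile had medians of 4 sites and 55.0%, and SEH1L had no listed site. The median gene coverage of the 5 NUP-named genes was 41.4 against 44.6 for all 47 genes. Their shared sites were deeper, with a median of 115 and 108 reads in the libraries against 61 and 76 over the group, so weaker sites could be listed. The part of depth in these values was not tested.

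Among the inner ring scaffold proteins, NUP205 had 5 shared sites averaging 22.4% ± 1.26 at a median of 267 and 311 reads. Its strongest, 201 bases from the annotated end, was at 40.7% of 270 and 37.2% of 368 reads, and its deepest at 20% of 410 and 18.1% of 485. NUP188 had 1 site, 169 bases from the end, at 38.3% of 321 and 33.9% of 342 reads. NUP155 had 2 sites in replicate 1 and none shared. The genes classed with the scaffold rings thus held 17 of the 135 nucleoporin sites. None of these was at 80% or more by the mean of both libraries. NUP98 was counted with the channel alone.

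All 27 nucleoporin sites at 80% or more lay in genes classed with the channel, the cytoplasmic face, the basket and the membrane. NUP62, the core of the central channel trimer, had 22 shared sites with a mean of 46.8% ± 0.655, at 46.4% in replicate 1 and 47.2% in replicate 2. Of these, 21 lay in a run of 1631 bases on chromosome 19 (49908120 to 49909750, minus strand), with neighbours at most 300 bases apart. Levels in that run went from 14.0% to 98.3%, so nearly complete and weakly methylated adenosines alternated. The highest, at position 49908360, showed A in 141 of 143 reads and 151 of 154 (95% Wilson interval of the sum 96.1% to 99.3%), and the deepest, at 49909100, in 339 of 346 and 384 of 400. Its partners in the trimer had fewer: NUP58 had 3 sites averaging 43.0% ± 2.67, and NUP54 had 2 averaging 14.0% ± 2.51. A further 3 NUP54 sites were listed in 1 library each. NUP98, a channel nucleoporin that also acts in mRNA export, had 11 sites averaging 48.7% ± 1.10, from 16.9% to 89.3%.

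Cytoplasmic-face nucleoporins had a median gene level of 60.1%, and 9 of their 24 sites (37.5%) reached 80%. Median coverage of these 24 sites was 41 and 45.5 reads, against 61 and 76 over the group, and its part was not tested. NUP214, which docks exporting receptors, had 13 sites averaging 62.5% ± 1.24, 10 of them within 772 bases on chromosome 9 and 36497 or more bases before the annotated end. At its position 131197782 all 32 reads of replicate 1 and 37 of 38 of replicate 2 showed A. RANBP2, the large filament protein that binds Ran, had 8 sites averaging 57.7% ± 1.74, at 53.4% and 61.9% in the libraries. Restricted to sites covered by at least 50 reads in each file, its mean was 31.8%. RANBP2 has near-identical copies (the RGPD genes), and no label or header says how reads were shared among them, so its values are uncertain. NUP42 had the highest mean over shared sites, 81.7% ± 3.76, from 2 sites: one at 85.1% of 141 and 86.2% of 167 reads, the other at 66.7% of 15 and 88.9% of 18. A NUP42 site at 59.5% of 42 reads was listed in replicate 1 alone and one at 26% of 50 in replicate 2 alone, so its rank holds for shared sites only. NUP88, the partner of NUP214, had 1 site 102 bases from its start, at 36.6% of 41 and 40.7% of 54 reads.

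At the nuclear basket, NUP153 had the most shared sites of the group, 26, at a mean of 48.0% ± 0.857 (48.8% and 47.2% in the libraries). The gene lies on chromosome 6 from 17615037 to 17706925 on the minus strand. Its sites were scattered rather than gathered at 1 end: 5 lay within 211 bases starting 223 bases from the first annotated base, 8 within 241 bases at 22269 to 22509 bases from the end, and 5 within 231 bases at 853 to 1083 bases from the end. The deepest showed 75.6% of 258 and 75% of 252 reads. NUP50, which helps release cargo from importin alpha, had 16 sites averaging 64.8% ± 1.27, of which 10 lay within 988 bases. Over all shared sites, NUP50 and NUP214 differed by less than the sum of their counting errors. Both lay above NUP153, NUP62 and NUP98 by more than the sum of the errors. Their sites had lower median coverage than those of NUP153, NUP62 and NUP98, so weak sites were less readily listed. With at least 30 reads in both libraries the means were 70.1% for NUP50, 59.4% for NUP214, 48.5% for NUP153 and 46.8% for NUP62. With a level of at least 20% in both they were closer, at 64.8%, 66.0%, 57.0% and 57.6%. The part of depth in these differences was not tested. NUP210, a membrane nucleoporin, had 14 sites averaging 46.2% ± 0.682, with 13 in a run of 964 bases ending 202 bases from the gene's end. Its site at chromosome 3, position 13316965 stood at 96.9% of 260 and 96.2% of 286 reads, while 10.7% of 411 and 10.9% of 468 reads showed A at its deepest site.

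**Figure D3:**
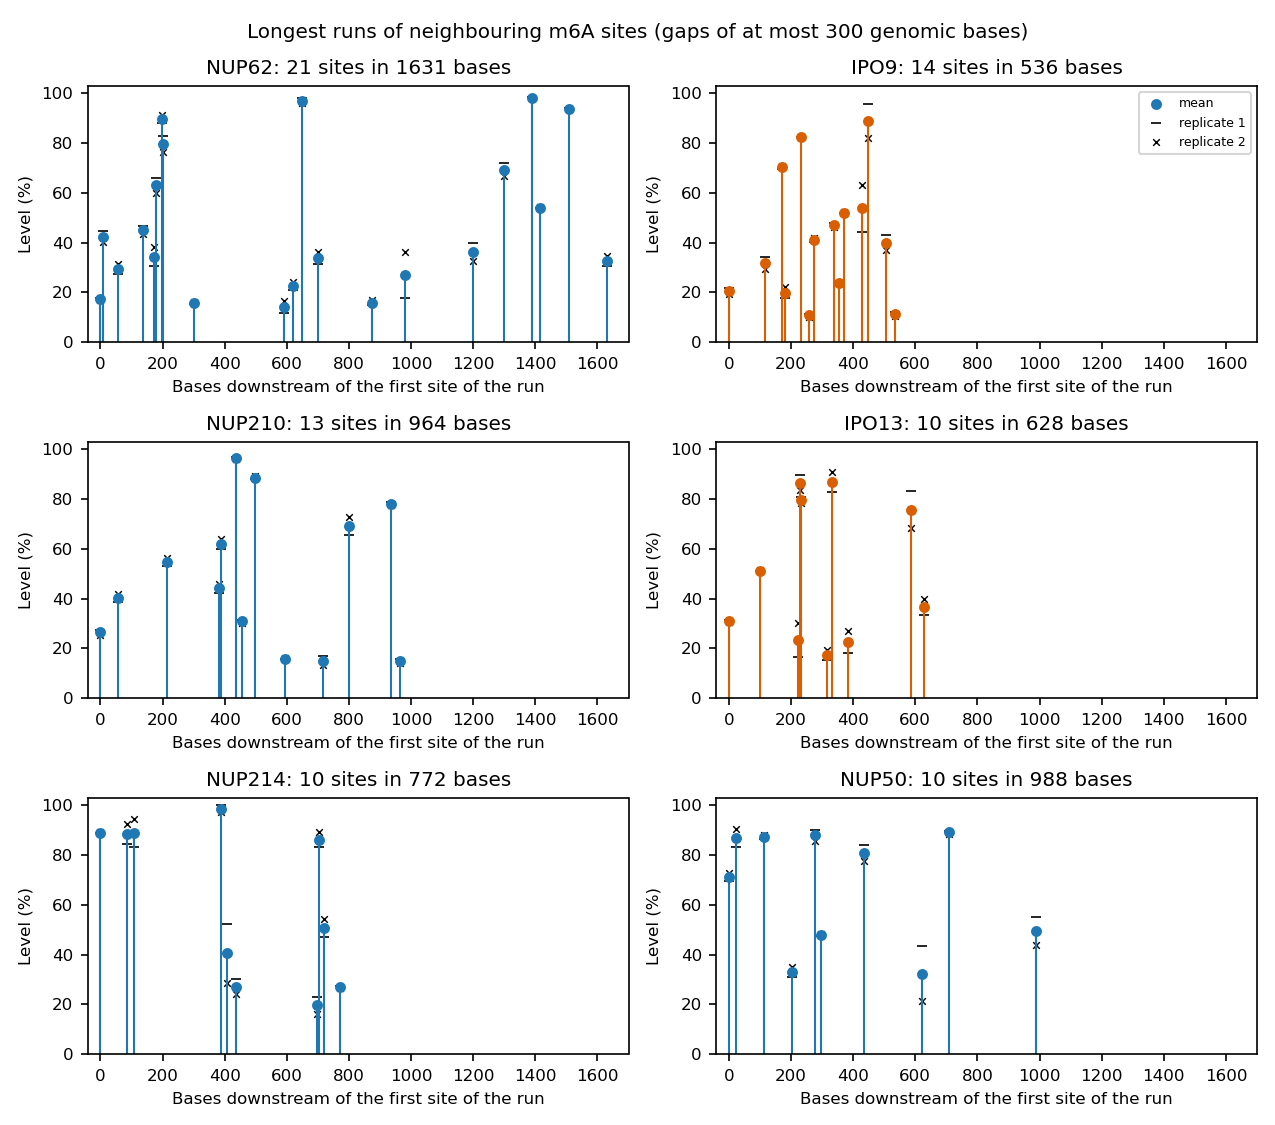
Levels (y axis, %) of the sites in the 6 runs with the most neighbouring sites, by distance in bases downstream of the first site of the run, with circles for the mean of both libraries, dashes for replicate 1 and crosses for replicate 2. In each run high and low sites stand side by side, as in NUP62 from 14.0% to 98.3% and in IPO9 from 10.8% to 88.9%.

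Among the receptors, the importins alpha, the adaptors that recognise the classical nuclear localisation signal, had close gene levels over all shared sites. KPNA6 had 16 sites averaging 40.1% ± 0.915, KPNA1 had 9 averaging 39.7% ± 1.78, KPNA3 had 4 averaging 45.2% ± 2.74 and KPNA2 had 2 averaging 36.7% ± 2.23. KPNA6 and KPNA1, members of 1 subfamily, differed by less than either error over all shared sites. With at least 30 reads in both libraries their means were 40.7% and 39.0%, but with at least 50 reads 39.6% and 29.15%. For KPNA3 the mean was 19.0% over sites with at least 30 reads in both libraries. Of the 31 sites of the family, 28 lay in that final 10% of the span, the exceptions being both KPNA2 sites and 1 of KPNA6. Within KPNA6, 6 sites in 102 bases on chromosome 1 averaged 57.7% and reached 92.2%, with 93.8% of 211 and 90.6% of 212 reads at position 32171017. A separate run of 5 sites in 326 bases averaged 19.9%, from 12.7% to 31.8%, so single sites of these runs overlapped only between 22.3% and 31.8%.

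KPNB1, importin beta itself, which carries importin alpha and its cargo, had only 2 shared sites, at 30.4% of 270 and 26.6% of 335 reads and at 25.4% of 71 and 36.2% of 69. Its gene coverage of 235 was the highest of the group, and genes in its coverage decile had a median of 2 sites and 31.0%. Few and moderate sites were thus typical of genes at that coverage.

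IPO9, an importer of histones, had the most sites of any receptor, 24, with a mean of 43.5% ± 0.777 (43.2% and 43.8%). They lay mainly in a run of 14 in 536 bases and another of 7 in 540 bases on chromosome 1, and the strongest site with at least 50 reads in both libraries stood at 82.4% of 182 and 82.3% of 209 reads. IPO13, which works both as importer and as exporter, had 15 sites averaging 48.5% ± 1.12. Its longest run, 10 sites in 628 bases, lay 2511 bases from the first annotated base and 17935 or more from the end, and another 4 sites began 121 bases from the start. IPO9 and IPO13 each had only 1 site within 1 kb of the annotated end.

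The paralogs IPO7 and IPO8, importers of ribosomal proteins and other cargo, had 7 sites averaging 56.7% ± 1.62 and 4 averaging 53.0% ± 2.08. Each had a strong site towards its end: 89.6% of 144 and 89.8% of 176 reads in IPO7, 2863 bases from the end, and 91.1% of 56 and 96.5% of 57 in IPO8, 1892 bases from it. The IPO7 mean was 47.1% over sites with at least 30 reads in both libraries and 41.9% with at least 50. It was 43.9% from summed reads and 63.8% with a level of at least 20% in both. IPO5 and its relative RANBP6 stood further apart. IPO5 had 8 sites in 631 bases averaging 33.0% ± 1.04, and RANBP6 had 8 averaging 54.5% ± 2.19. The median coverage of their sites was 212 and 274 reads in IPO5 but 20 and 24 in RANBP6, where weak sites could not be listed, so the levels are not comparable.

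The transportins, which import RNA-binding proteins, had low levels. TNPO1 had 1 shared site, at 23.7% of 156 and 21.3% of 188 reads. TNPO2 had 3 averaging 29.1% ± 2.37, led by one 115 bases from its first annotated base at 51.5% of 33 and 59.6% of 52 reads, and its mean was 15.9% where both files gave at least 50 reads. TNPO3, the importer of splicing factors with serine-arginine repeats, had 5 averaging 37.7% ± 1.98. IPO11 had 2 at 25.2% ± 3.07 and IPO4 had 2 at 44.1% ± 1.55. TNPO1, XPO7 and IPO11, the receptors with the lowest means, differed from their neighbours in this order by less than the sum of their errors.

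Of the exportins, XPO6, the exporter of actin with profilin, had 14 sites averaging 53.5% ± 0.789 (54.8% and 52.3%), of which 8 lay within 507 bases and 98 bases or more before the annotated end on chromosome 16. XPO1 (CRM1), the main exporter of proteins with a leucine-rich export signal, had 4 sites averaging 42.3% ± 0.954, and 3 of these lay in 114 bases close to the start of the gene. The site at chromosome 2, position 61537874 was the deepest of the whole group, at 47.2% of 885 and 44.7% of 1047 reads, and its neighbour at 61537949 stood at 67.0% of 563 and 62.7% of 638. Their Wilson intervals, 43.7% to 48.1% and 62.0% to 67.4%, did not overlap, so adenosines 75 bases apart were methylated to different extents. XPO5, the exporter of precursor microRNAs, had 3 sites averaging 31.6% ± 2.66, of which the only one with at least 50 reads in both stood at 56.5%. XPO7 had 3 averaging 23.6% ± 1.48, all in the last 10% of its gene.

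The 4 Ran-binding cofactors and scaffolds had a median gene level of 40.7%, between those of receptors and nucleoporins. RANBP3, a cofactor of XPO1, had 8 sites averaging 56.5% ± 1.54, with 7 in 359 bases and one at 93.6% of 78 and 85.9% of 92 reads. RANBP10 had 9 averaging 45.9% ± 1.99 and RANBP9 had 4 averaging 35.5% ± 2.43, or 20.5% at its only site with at least 50 reads in both. RANBP1, which helps RanGAP release Ran from receptors, had 4 averaging 33.4% ± 3.15, or 17.7% at its only site with at least 30 reads in both. All sites of RANBP3 and RANBP10 lay in the last 10% of the gene, against 1 of 4 in RANBP1 and in RANBP9.

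The lncRNA NUP50-DT, which lies beside NUP50 on chromosome 22, had 2 sites averaging 72.7% ± 5.06 at a median coverage of 21 and 18 reads. The pseudogenes had 3 sites in NUP50P3 (66.6% ± 2.25) and 1 each in KPNA2P2 (21.9% ± 2.99), NUP50P1 (29.8% ± 4.92) and TNPO1P3 (26.6% ± 2.86). Pseudogenes resemble their parent genes in sequence, and reads of one can be assigned to the other, so these entries are uncertain.

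Genes with more shared sites had higher mean levels in both classes. Across the 38 genes of the classes Spearman's rho was 0.632, with 0.654 over 18 nucleoporins and 0.595 over 20 receptors, and 0.247 over all 9521 genes. Level and gene coverage had a rho of -0.196 over the 38 genes and -0.418 over all genes. These describe genes of the same libraries, which share depth and the limits of the site lists and are not replicates, so no p-value is given. The lower levels lay with genes of few sites: every gene of the classes below 20% (NUP133, NUP54, NUP37, NUP107 and NUP43) had 3 sites or fewer. NUP42 was the exception at the other end, with 2 shared sites and the highest mean over them.

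**Figure D4:**
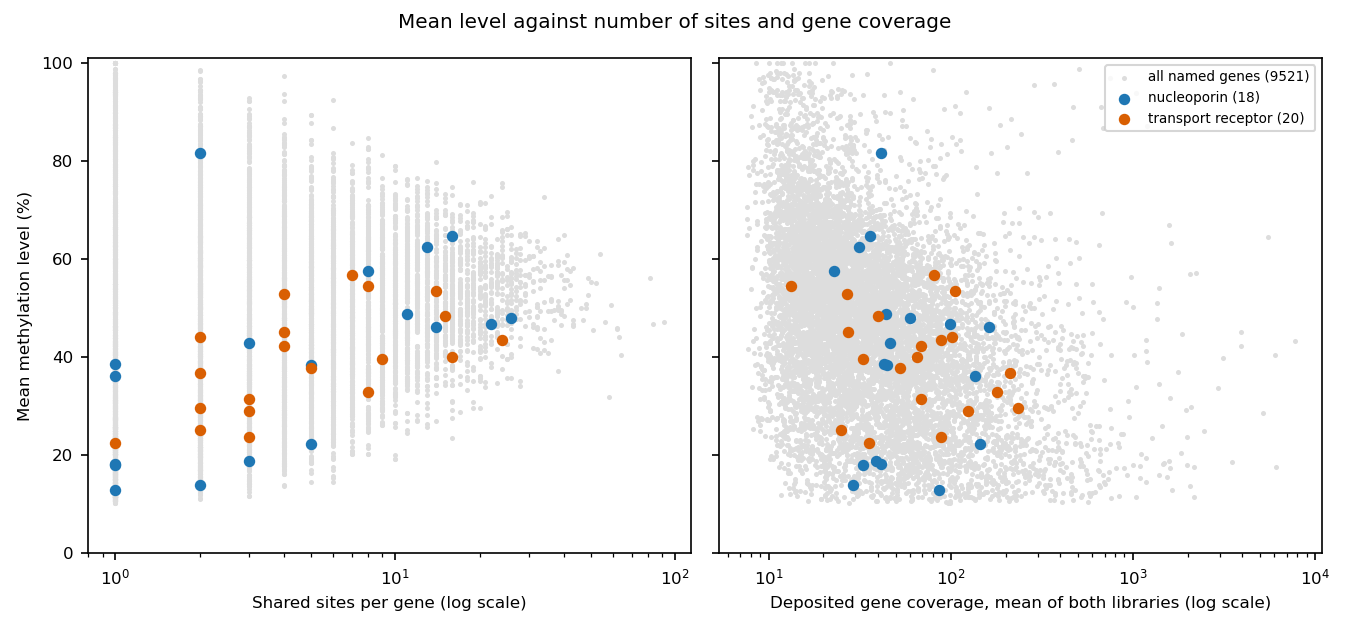
Mean level (y axis, %) of each gene against its number of shared sites (left, log scale) and its deposited gene coverage (right, log scale), with nucleoporins in blue, receptors in orange and all 9521 named genes in grey. Among the coloured points levels rise with the number of sites (rho 0.632), and those below 20% are nucleoporins with 1 to 3 sites.

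Other genes of the pore and of Ran-driven transport gave a similar picture. Of 31 examined, 27 had shared sites, 153 in all, with a median of 4 per gene and a median level of 42.5%. Of these, 12 had more sites than the median of their coverage decile and 14 a higher level, near the 45.1% and 50% of all genes. The pore membrane proteins POM121C (21 sites, 47.8% ± 0.658) and POM121 (14 sites, 41.4% ± 1.08) had many, but they are near-identical copies and their values are uncertain. RANGAP1, which makes Ran hydrolyse GTP, had 12 sites averaging 30.8% ± 0.684, RCC1, which reloads it, had 9 averaging 29.2% ± 0.974, and RAN itself had 2 averaging 35.6% ± 1.63. NXT1, a subunit of the mRNA exporter with NXF1, had 8 averaging 57.8% ± 1.13, and NXF1 had 3 averaging 43.0% ± 3.03.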

How the data were processed

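GLORI libraries of wild-type HEK293T messenger RNA (2 replicates, 1 group) were analysed from the site lists the authors deposited, 1 per library. Per the file headers, each site has a read count of A and of A plus G, their ratio as a fraction, a conversion fraction, a gene coverage, a p-value and the adjusted p-value. Tools in the submitters' processing notes are STAR, Bowtie, SAMtools and Trim Galore 0.6.6, with build GRCh38 and no settings. Whether reads were collapsed by molecule is unknown, so errors and intervals cover counting error only.

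From these, shared sites (same chromosome, position and strand), gene levels (unweighted mean over shared sites of the mean of both libraries), counting SE, 95% Wilson intervals on summed counts and Fisher's exact test per shared site with Benjamini-Hochberg adjustment were computed in Python 3.11.15 with SciPy 1.17.1, and tested on simulated data. The SE came from binomial variances with 0.5 added to the A count and 1 to the total. Runs join sites at most 300 bases apart. Gene spans and sequences are from RefSeq (GRCh38.p14), in which 52 of 52 genes matched. Positions are 1-based. The sequence of 1 first-base site is not reported here. Genes were grouped in 10 classes of gene coverage.

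Members and lists were chosen with earlier results of these data known. Genes named with values are the 5 with the most shared sites in each role and, with at least 3 sites, the 4 highest and 4 lowest by level; others are named to account for every gene. Alternatives were coverage limits of 30 and 50 reads, a level limit of 20%, summed reads, classes by symbol and each library alone.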

Additional observations from a re-analysis of the deposited data

How the results depend on the processing

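With at least 30 reads in both libraries the median gene level was 41.9% for nucleoporins and 37.9% for receptors, with a difference of -4.00 points, and with at least 50 reads 39.4% and 37.7%. With a level of at least 20% in both libraries the medians were 54.8% and 52.3%, which follows from leaving out weak sites, and raised the means of KPNA3 to 71.4%, NUP43 to 33.0%, TNPO2 to 55.6% and XPO5 to 56.5%. From summed reads the nucleoporin median was 42.4% and the difference -3.55 points. Leaving out 1 replicate used every site listed in the other, shared or not. It gave nucleoporin medians of 38.0% to 38.7%, receptor medians of 37.3% to 40.1% and differences from -1.41 to 2.06 points. The number of genes with a shared site (40 to 50) and the median sites per gene stayed within 1.5 times their values under every alternative run. Fisher's exact test called 0 sites also with at least 50 reads (879 of 24853 at an unadjusted p below 0.05). A chi-square test in its place, with values scaled by the dispersion, called 0 as well (3059 at an unadjusted p below 0.05). First-base sites were listed in 7 genes by each library alone. The share of sites in the last 10% ran from 32.9% to 41.9% for nucleoporins and from 49.0% to 54.3% for receptors. The results for first-base sites, for the last 10% and for the last 1 kb were not planned. Their alternatives, among them the last 1 kb without NUP210, were chosen after seeing the data. No paired analysis was possible because there is only 1 group of samples. Shares of sites in a sequence motif and in UTRs, which need a genome and exon annotation, were not run.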
